A study of Arabidopsis thaliana with 12 samples.

Results

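The transcripts described here are those that were lower after hypoxia than in air in every genotype studied, in whole seedlings of the plant Arabidopsis thaliana. They were chosen on the measured values themselves, as probe sets whose mean was at least 5 on the log2 (intensity + 1) scale in all 3 air groups, and whose mean under hypoxia lay at least 1 log2 unit below that in air, a 2-fold drop, in each of the 3 genotypes. A few named gene families, single genes and the chloroplast-encoded genes were left out by the choice, and among them 2 probe sets, for EXLA2 and XTH16, otherwise met it. The set holds 125 of the 22746 probe sets that are not array controls, and all 125 are among the 13687 that were bright enough to test. Of the 125, 51 are assigned to 1 gene, 3 to several genes and 71 to none. Members with no single gene are given by probe set identifier, without a role.

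Total RNA was measured on Affymetrix ATH1 arrays, which read each transcript with a set of short probes. Seedlings were 7 days old, of the Columbia-0 background, and were either wild type (WT) or carried 35S::HRE1 (HRE1ox here) or 35S::HRE2 (HRE2ox), in which the constitutive 35S promoter drives an ethylene response factor gene that plants raise under low oxygen. All groups were grown on plates with 30 mM sucrose under alternating light and dark, and were then kept for 4 h in the dark at 23 °C, either in air with 21% oxygen or under hypoxia with 1% oxygen. Each of the 6 groups has 2 arrays, described as biological replicates. The labels do not say how many independent transgenic lines or how many seedlings went into an array, and the probe sets of HRE1 and HRE2 themselves have no gene assigned here, so the transgenes were not checked.

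Low oxygen limits respiration, and plants answer by raising a small group of genes for fermentation and low-oxygen survival while many costly processes are turned down. Growth of the cell wall is among these, since its secreted enzymes, its polymers and its surface lipids use carbon and energy. Class III peroxidases are secreted haem enzymes that use hydrogen peroxide to cross-link wall polymers or produce reactive oxygen there, and many of them are active in roots and root hairs.

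The arrays had closely matched median intensities, from 32.7 to 35.7. The deposited values had been quantile normalized across arrays, which brings such medians together, so they do not show how alike the arrays were. Replicate 1 of the WT and HRE1ox groups, 4 arrays in all, stood apart on control transcripts that are added to a sample: the thr 5′ control read 8.09 to 8.36 on those arrays against 3.10 to 4.57 on the other 8. The main medians and calls over the members are given below with and without them, and the values of each array are printed for the main members. The wild-type air array labelled replicate 2 carries a conflicting ecotype label that names 35S::HRE2, and it was grouped by its title; without it the same choice gave 120 probe sets, 114 of them shared with the 125. Transcripts of green tissue were abundant, with LHCB4.1, LHCB4.2 and RCA, which serve photosynthesis, at group means of 13.80 to 14.51, and their hypoxia minus air differences lay between -0.15 and 0.18. Of 10 root and root hair marker genes, 3 had a probe set assigned, and none of 8 further green-tissue markers or 5 seed storage markers had one.

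All values below are log2 (intensity + 1) for levels and log2 units for differences, and SE is the moderated error of a linear model (limma) fitted to all 12 arrays. The median difference between hypoxia and air over the 125 members was -1.55 in WT, -1.81 in HRE1ox and -1.52 in HRE2ox. Over all tested probe sets the medians were -0.01, 0.00 and -0.03. The quantile normalization holds such medians near 0, so a fall shared by most transcripts could not show in them. Single members ranged from -3.63 to -1.01 in WT, from -4.02 to -1.02 in HRE1ox and from -3.96 to -1.0 in HRE2ox. Because the choice used these differences, they describe the set and are not a test of it. RNA came from whole seedlings, in which fewer cells of a type and less RNA per cell cannot be told apart.

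Most drops were moderate. In all 3 genotypes, 71 members lay between 1 and 2 log2 units lower, and 18 were at -2 or lower throughout. The hypoxia mean was under log2 4, the level a probe set had to reach to be tested, in all 3 genotypes for 13 members, in 2 for 6 and in 1 for 7, and drops to such low values may be understated. In limma, 115 members were called lower in WT (3.27% of all tested probe sets were called lower), 121 in HRE1ox (7.08%) and 112 in HRE2ox (3.58%), and 110 were called in all 3 (2.14%). Without the 4 arrays that stand apart all 125 stayed below 0 in WT and HRE1ox, with 82 called lower in WT (1.21%) and 104 in HRE1ox (3.43%), and the medians were -1.53 and -1.82. In either direction 6.58%, 12.4% and 6.96% of tested probe sets were called in WT, HRE1ox and HRE2ox. The choice itself used this contrast: 1.23% of tested probe sets were at -1 or lower in all 3 genotypes before the air minimum. Both hypoxia arrays lay below both air arrays in all 3 genotypes for 124 members (11.1% of tested probe sets did so). The exception was 256929_at, with HRE1ox arrays at 4.66 and 6.29 in air and at 3.86 and 4.90 under hypoxia.

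**Figure D1:**
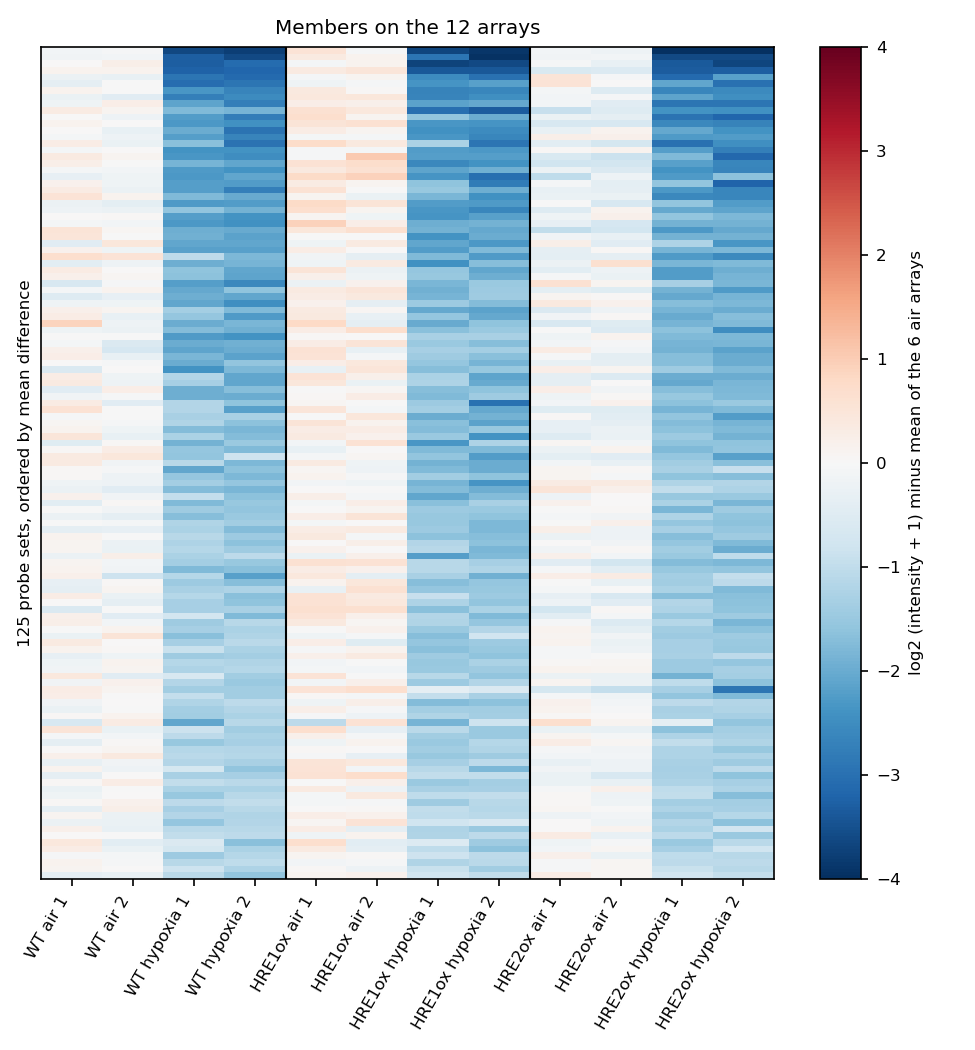
Colour gives the log2 (intensity + 1) value of each of the 125 members (rows, ordered by mean difference) on each of the 12 arrays (columns), minus that member's mean over the 6 air arrays. All 6 hypoxia columns are blue for nearly all rows, in WT, HRE1ox and HRE2ox alike, and the air columns are close to white or pale red.

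At the edge of the choice the values run on without a break. The members closest to the limit were AT1G14960, with -1.0 in HRE2ox, 264687_at, also with -1.0 in HRE2ox, and AT5G23750, with -1.01 in WT. Just outside it lay ZW9, which rounds to -1.0 in WT but lies just above the limit, 250820_at, at -0.99 in HRE2ox, and 266383_at, at -0.99 in WT.

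Peroxidases were the largest family among members with a single gene, with 10 of the 51, out of 33 peroxidase genes tested. Over all tested probe sets, 125 of 13687 were members. The 71 members with no gene could not be placed in a family. The 10 peroxidases had a median difference of -1.62 in WT, -1.81 in HRE1ox and -1.56 in HRE2ox, and their means over genotypes ran from -2.44 to -1.32. AT1G30870 had the lowest mean difference over the genotypes, though in WT alone AT1G34510 was lower. The WT arrays of AT1G30870 read 8.17 and 8.05 in air and 5.74 and 5.63 under hypoxia, its HRE1ox arrays 8.54 and 8.66 and then 5.72 and 5.69, and its HRE2ox arrays 7.40 and 7.41 and then 5.47 and 5.36. The hypoxia arrays of the 3 genotypes lay within 0.4 of each other, while the air arrays were highest in HRE1ox and lowest in HRE2ox, so the difference was -2.89 ± 0.12 (SE) in HRE1ox, -2.43 ± 0.12 in WT and -1.99 ± 0.12 in HRE2ox.

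AT1G34510, another peroxidase, read 6.67 and 6.43 in air and 3.99 and 3.81 under hypoxia in WT, 6.26 and 7.34 and then 4.09 and 4.12 in HRE1ox, and 5.69 and 5.46 and then 4.55 and 3.17 in HRE2ox. Its HRE2ox hypoxia arrays were far apart, and the differences were -2.65, -2.70 and -1.71 (each ± 0.43). AT3G49960 read 6.24 and 6.20 and then 4.01 and 3.88 in WT, 7.22 and 6.57 and then 4.36 and 4.43 in HRE1ox, and 5.98 and 5.65 and then 4.41 and 4.41 in HRE2ox. No pair of groups overlapped within a genotype, and the differences were -2.28, -2.50 and -1.40 (each ± 0.20). AT4G30170 read 9.65 to 10.13 over the 6 air arrays, and 7.86 to 8.42 on the 6 hypoxia arrays. The other 6 were AT1G68850, AT2G35380, AT2G18980, AT5G14130, AT4G26010 and AT3G01190, with differences between -2.12 and -1.11.

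The family as a whole did not move one way. Of 73 class III peroxidase genes, 55 had a probe set of their own and 33 were tested. Lower calls numbered 13 in WT, 14 in HRE1ox and 13 in HRE2ox (3.27%, 7.08% and 3.58% of tested probe sets were called lower). These include the 10 members, which the choice took because they fell. Higher calls numbered 2, 3 and 2 (3.31%, 5.31% and 3.38% of tested probe sets were called higher). Over the 33 the median difference was -0.55, -0.64 and -0.34. The 23 tested genes outside the set had medians of -0.13, -0.42 and -0.18, with 3, 4 and 3 of them called lower. Of these, AT5G15180 (-1.40, -1.90 and -0.95 in WT, HRE1ox and HRE2ox) and AT5G17820 (-1.0, -1.38 and -0.96), missed the set by a small margin. Against these stood Prx37 and AT5G39580, which were higher after hypoxia in all 3 genotypes: AT5G39580 by 2.30 ± 0.21, 1.86 ± 0.21 and 2.42 ± 0.21, with adjusted p-values in limma of 0.000146, 0.000344 and 0.000115. Prx37 was left out of the choice by name and rose by 1.38 ± 0.17, 2.18 ± 0.17 and 1.82 ± 0.17. AT4G31760 was called higher in HRE1ox (1.52 ± 0.25, limma adjusted p = 0.0038), from an air mean of 2.7.

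**Figure D2:**
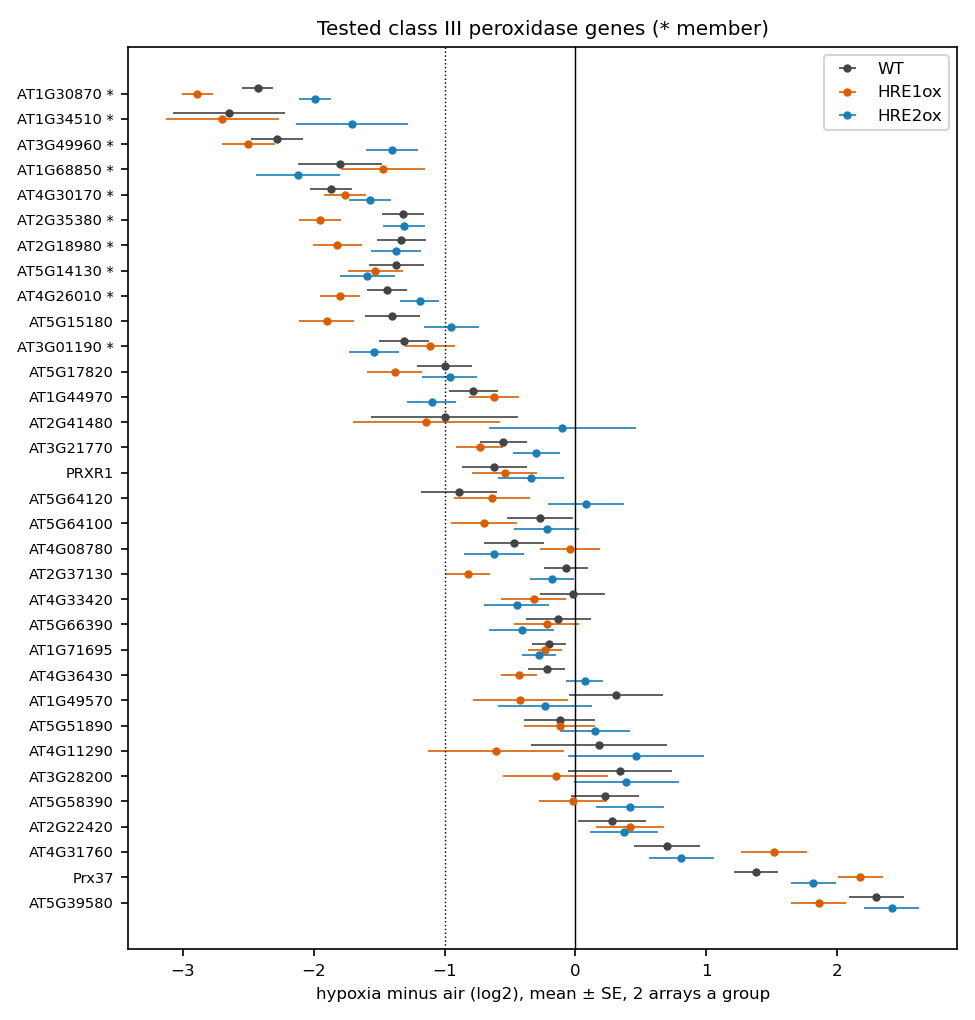
Each row is 1 of the 33 tested class III peroxidase genes, ordered by its mean difference, and each point is hypoxia minus air in log2 units with its SE for WT (grey), HRE1ox (orange) or HRE2ox (blue), 2 arrays a group. Members are starred and lie left of -1 in all 3 genotypes, while AT4G31760, Prx37 and AT5G39580 lie to the right of 0.

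Of the members, 7 were grouped under the cell wall and carbohydrates. Their median difference was -1.36 in WT, -1.57 in HRE1ox and -1.64 in HRE2ox. AT3G01260, a galactose mutarotase-like protein, had the lowest mean difference of the members with 1 gene. It read 6.67 and 6.76 in air and 3.16 and 3.02 under hypoxia in WT, 7.33 and 6.74 and then 3.13 and 2.90 in HRE1ox, and 6.68 and 6.59 and then 2.71 and 2.64 in HRE2ox. All 6 air arrays were above 6 and all 6 hypoxia arrays were under log2 4, and the differences were -3.63, -4.02 and -3.96 (each ± 0.18). It lies close to the peroxidase gene AT3G01190, with 6 coding genes between them, and among the 50 members placed by a single RefSeq gene this was the only pair with 10 or fewer coding genes between.

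AT5G04960, a pectin methylesterase, which removes methyl groups from wall pectin, read 7.02 and 6.81 and then 4.75 and 4.24 in WT, 7.68 and 7.11 and then 5.42 and 5.02 in HRE1ox, and 6.72 and 6.65 and then 4.03 and 3.82 in HRE2ox. Under hypoxia it read highest in HRE1ox and lowest in HRE2ox, and its differences were -2.42, -2.17 and -2.76 (each ± 0.24). Neither line was called against WT under hypoxia in the main limma fit (adjusted p = 0.34 for HRE1ox and 0.527 for HRE2ox). A fit of the 8 WT and HRE1ox arrays with a replicate block called HRE1ox (limma adjusted p = 0.0202). AT5G62340, of the family that inhibits pectin methylesterases, read 8.84 and 8.72 in WT air and 7.77 to 8.01 on the 4 transgenic air arrays. Neither line was called against WT in air in limma (adjusted p = 0.281 for HRE1ox and 0.108 for HRE2ox). The hypoxia minus air differences of AT5G62340 were -2.05, -1.77 and -2.04. AT1G62660, a vacuolar invertase that splits sucrose, had the smallest mean drop of this group after AT3G18170: its air arrays read 10.44 to 10.74 and its hypoxia arrays 9.06 to 9.49. The remaining 3 were AT3G04010, a glycosyl hydrolase, AT1G33700, a glucosylceramidase-like protein, and AT3G18170, a glycosyltransferase, with differences of -1.64 to -1.12.

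Another 10 members were grouped under lipids and the plant surface, though some carry only a broad enzyme family name. Their median difference was -1.47 in WT, -1.33 in HRE1ox and -1.32 in HRE2ox. AT5G55050, an enzyme of the GDSL esterase and lipase family, read 6.09 and 6.05 and then 4.70 and 4.40 in WT, 6.95 and 6.38 and then 3.96 and 3.67 in HRE1ox, and 5.77 and 6.43 and then 4.22 and 4.16 in HRE2ox. Its hypoxia arrays were lowest in HRE1ox, while its air arrays overlapped between HRE1ox and HRE2ox. The HRE1ox difference was -2.85 ± 0.25, against -1.52 ± 0.25 in WT and -1.91 ± 0.25 in HRE2ox. Under hypoxia HRE1ox was not called against WT in the main limma fit (adjusted p = 0.374). The fit of 8 arrays with a replicate block called it (limma adjusted p = 0.0361). AT3G22620, a lipid-transfer protein-like gene, was even across genotypes, at 10.01 to 10.36 on the air arrays and 8.42 to 8.82 on the hypoxia arrays. BAT1, an acyltransferase that acts on brassinosteroids, read 6.36 to 6.71 in air and 5.19 to 5.37 under hypoxia, and differed by -1.43, -1.16 and -1.32 (each ± 0.12). CXE18, a carboxylesterase, showed how wide the replicates could be: in WT its air arrays were at 6.55 and 5.68 and its hypoxia arrays at 5.55 and 4.45, with the higher value of each group on replicate 1, and its SE was 0.48. The other 6 were 2 lipid-transfer protein-like genes, AT5G13900 and AT2G48130, the GDSL gene AT1G74460, the hydrolases AT4G36610 and AT3G05600, and the acyltransferase AT5G01210, with differences of -2.09 to -1.03.

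Other enzymes and secreted proteins included some of the deepest drops. AT1G64590, a short-chain dehydrogenase/reductase, read 6.43 and 6.47 and then 3.27 and 2.98 in WT, 6.94 and 6.73 and then 3.66 and 2.63 in HRE1ox, and 6.45 and 6.46 and then 2.97 and 2.98 in HRE2ox. As with AT3G01260, all hypoxia arrays were under log2 4, and the differences were -3.32, -3.69 and -3.48 (each ± 0.27). AT5G02540, of the same enzyme family, differed most between genotypes of all 125 members. It read 6.93 and 7.06 and then 4.95 and 5.15 in WT, 8.01 and 8.17 and then 4.88 and 4.22 in HRE1ox, and 6.24 and 7.05 and then 4.99 and 5.59 in HRE2ox. Both HRE1ox air arrays were above all 4 other air arrays, and the differences were -1.94, -3.54 and -1.36 (each ± 0.30), a gap of 2.18 between the strongest and the weakest genotype. In limma HRE1ox was not called against WT in air for this gene (adjusted p = 0.281). AT4G10280, a cupin-fold protein, read 5.23 to 5.83 on the air arrays and 2.58 to 3.54 on the hypoxia arrays, and its differences were -2.32, -2.67 and -2.16.

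The secreted or defence-like group of 5, which holds AT4G10280, also has AT3G57010, a strictosidine synthase-like protein, the lectin EULS3, AT4G33720 of the PR-1-like family and AT1G14960, a major latex protein-like gene, and its median difference was -1.60, -1.61 and -1.29. AT4G33720 was uneven in HRE2ox, at 5.27 and 5.0 in air and 4.64 and 3.05 under hypoxia. The other 4 enzymes were AT4G29700, a nucleotide pyrophosphatase/phosphodiesterase, AT3G62040, a haloacid dehalogenase-like hydrolase, AT5G42320, a zinc carboxypeptidase, and AT2G41380, a methyltransferase, with differences of -2.33 to -1.02.

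Another 4 members belong to transport or membranes, with a median of -1.45, -1.74 and -1.15. AT4G17280, of the cytochrome b561 family of membrane electron carriers, read 7.05 and 6.70 and then 4.66 and 4.62 in WT, 7.20 and 6.99 and then 5.27 and 4.07 in HRE1ox, and 6.79 and 6.49 and then 5.30 and 3.67 in HRE2ox. Its hypoxia replicates were far apart in both transgenic lines, and the differences of -2.23, -2.42 and -2.15 carry an SE of 0.50. The others were AT2G40460 of the peptide and nitrate transporter family, the remorin AT5G23750 and AT1G61890 of the MATE efflux family. The members grouped under regulation were AT5G58900, a MYB-related transcription factor (-1.44, -2.25 and -1.45), and AT5G65910, a BSD domain protein (-1.06, -1.73 and -1.13). Regulators among the members with no gene or no role could not be counted. No role was assigned to 7 members with a gene, among them AT5G57785, whose air arrays read 9.25 to 9.93 and hypoxia arrays 7.99 to 8.54, and AT2G30930, at 8.71 to 9.68 and 7.37 to 8.40.

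The 71 members with no assigned gene had a median difference of -1.60, -1.95 and -1.55, where the 51 with 1 gene had -1.44, -1.73 and -1.40. Their lowest mean difference was that of 264415_at, which read 6.20 and 6.20 and then 2.80 and 2.87 in WT, 6.42 and 6.54 and then 2.67 and 2.67 in HRE1ox, and 5.43 and 5.51 and then 2.73 and 2.74 in HRE2ox. Every hypoxia array was under log2 4, and the HRE2ox air arrays were the lowest in air. Next came 252638_at, with differences of -2.76, -2.78 and -2.87 (each ± 0.30), and 250541_at, with -2.79, -2.15 and -2.82 (each ± 0.28). Of the 3 probe sets matched to several genes, 254820_s_at read 11.33 to 11.89 in air and 7.93 to 8.55 under hypoxia, and no hypoxia array came near an air array.

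Gene lists by name added little, because most genes in the annotation carry a locus number only. Of 18 lists drawn on gene names, from aquaporins to light and clock genes, 17 held no member and 1, for lipids and surface layers, held BAT1. The 3 root hair genes with a probe set, EXPA7, GH9C1 and EXPA18, were left out of the choice by name. All 3 were lower after hypoxia in each genotype, as the set was. In HRE2ox air, GH9C1 (4.91) and EXPA18 (4.66) were also under the air minimum of 5. EXPA7 was only at 3.54 to 4.57 in air, and under hypoxia all 3 had group means of 2.26 to 3.38, under log2 4. Their summed intensity was 85.8 to 139 in air and 20.4 to 22.7 under hypoxia in WT, 115 to 174 and 21.2 to 25.4 in HRE1ox, and 47.7 to 85.6 and 17.2 to 17.9 in HRE2ox. The part of root hair cells in the drop of the members was not tested.

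The gap between the strongest and the weakest difference of each member, which the choice itself limits by asking for a drop in every genotype, had a median of 0.44 and reached 1 or more for 10 members. The pooled SD between replicates had a median of 0.23 over the members. It was 0.18 over the 11266 tested probe sets with air means of 5 or more. This SD describes single arrays, whereas the gap is a range over differences of group means, so they cannot be compared directly. The gap that replicate spread alone would give was not tested. The lowest difference was that of HRE1ox for 71 members (56.8%), and that of WT and of HRE2ox for 27 each (21.6%). Among all 4218 tested probe sets below 0 in the 3 genotypes the shares were 47.2%, 22.5% and 30.3% for HRE1ox, WT and HRE2ox, and among the 119 probe sets raised by the mirror-image choice HRE1ox was the highest for 64.7%.

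**Figure D3:**
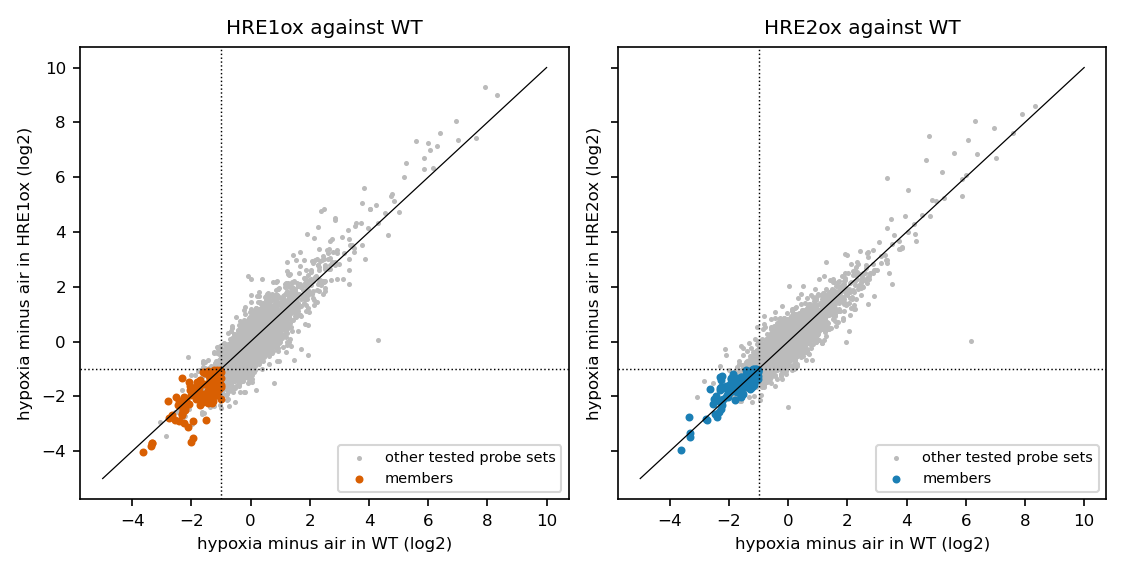
Hypoxia minus air in WT (x axis) against the same in HRE1ox (left, y axis) and HRE2ox (right, y axis), in log2 units, for the 125 members (coloured) and the other tested probe sets (grey), with the line of equal response and dotted lines at -1. Members form the lower left tail, spread on both sides of the line, with medians of -1.55 in WT, -1.81 in HRE1ox and -1.52 in HRE2ox.

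The next comparisons set the transgenic lines against WT. All use values that entered the choice, so counts, medians and shares over the members describe the set and do not test the transgenes. The interaction is the hypoxia minus air difference of each line minus that of WT. It is built from differences that the choice had used, and its p-values come from the fit over all tested probe sets. With HRE1ox it was below 0 for 83 of 125 members (66.4%, against 48.7% of all tested probe sets), with a median of -0.22 against 0.01, while the 119 raised probe sets had a median of 0.19. In limma no member was called (0.0804% of tested probe sets were), and 19 (15.2%, against 5.57% of all tested probe sets) had an unadjusted p under 0.05, 18 of them below 0. Without the 4 arrays that stand apart the median was -0.18 and again none was called. In a fit of the 8 arrays of WT and HRE1ox alone, with the 4 that stand apart set off as a block, 3 members were called (0.577% of tested probe sets): 250662_at at -1.66 ± 0.14 (adjusted p = 0.0152), 264146_at at 1.00 ± 0.13 (adjusted p = 0.0386) and AT5G55050 at -1.33 ± 0.19 (adjusted p = 0.0434). AT5G02540, at -1.60 ± 0.43, had an unadjusted p of 0.00466 and an adjusted p of 0.399 in limma without the block. With HRE2ox the interaction had a median of 0.01 against -0.02, no member was called in limma (0.0292%), and all 8 members with an unadjusted p under 0.05 (6.4%, against 2.59% of all tested) were above 0, AT1G30870 and AT3G49960 among them.

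**Figure D4:**
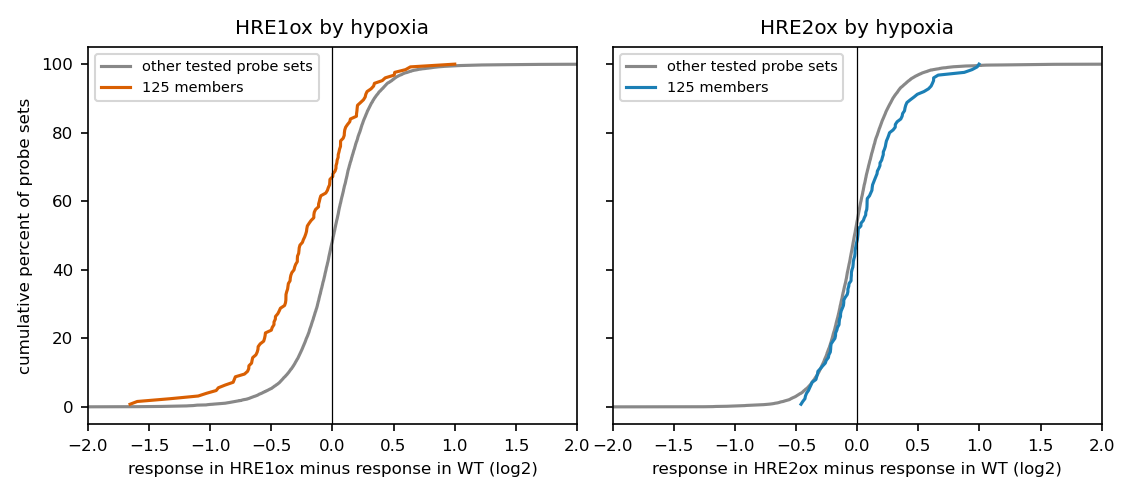
Cumulative percent of probe sets (y axis) by the response in HRE1ox (left) or HRE2ox (right) minus the response in WT, in log2 units (x axis), for the 125 members (coloured) and the other tested probe sets (grey). The HRE1ox curve of the members lies left of the grey curve, with a median of -0.22, and the HRE2ox curve lies close to it, with a median of 0.01.

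In air, the members lay slightly higher in HRE1ox than in WT, with 93 of 125 above 0 and a median of 0.18 against -0.01 over all tested probe sets. The air values entered the choice and members can vary together, so this count and median describe the set and are not a test. Below 0 were 25.6% of the members and 52.1% of all tested. The root hair genes had higher means in HRE1ox air too. These were 4.57 against 4.11 in WT for EXPA7, 5.89 against 5.43 for GH9C1 and 5.93 against 5.68 for EXPA18. Their array sums, given above, overlapped with those of WT air, and the part of these genes in the values of the members was not tested. None was called in limma (0.00731% of tested probe sets were), with or without the 4 arrays that stand apart, though 24 (19.2%, against 9.78% of all tested) had an unadjusted p under 0.05, 22 higher and 2 lower. Of the 10 peroxidases 9 were above 0, from -0.14 to 0.68 with a median of 0.32. Under hypoxia 9 of these 10 were above 0 too, from -0.4 to 0.7 with a median of 0.13, and none was called. In air, with the 4 arrays set off as a block, 6 members were called, all higher (1.35% of tested probe sets were called). Among them were the peroxidase AT4G26010 at 0.60 ± 0.10 (limma adjusted p = 0.0464) and AT1G14960 at 0.81 ± 0.12 (limma adjusted p = 0.0443).

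HRE2ox in air gave 4 members called lower than WT in limma and none higher (0.694% of tested probe sets were called lower and 0.935% in either direction). They were the peroxidase AT1G30870, at -0.71 ± 0.12 (adjusted p = 0.0308), 264415_at, at -0.73 ± 0.11 (adjusted p = 0.0243), 251017_at, at -1.17 ± 0.18 (adjusted p = 0.0246), and 250662_at, at -0.92 ± 0.17 (adjusted p = 0.0472). The probe set 251017_at read 8.92 and 8.48 in WT air and 7.40 and 7.67 in HRE2ox air, with 8.85 and 9.05 in HRE1ox. The median over all members was -0.09 against 0.01. None of the 4 arrays that stand apart is from HRE2ox, so this comparison partly mixes the line with that difference between arrays. The root hair genes had smaller sums in HRE2ox air too, as given above, and EXPA18 had a mean of 4.66 against 5.68 in WT; their part in these calls was not tested. All 4 calls were lost without the 4 arrays that stand apart, where fewer arrays enter the fit, while the differences were -0.65 for AT1G30870, -0.73 for 264415_at, -0.95 for 251017_at and -0.81 for 250662_at. With all other arrays in the fit, leaving out any single WT or HRE2ox air array kept at most 1 of them, 251017_at without WT replicate 2.

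Under hypoxia, 2 members differed between HRE1ox and WT in limma (0.84% of tested probe sets were called, 0.511% higher and 0.329% lower). The first, 264146_at, read 4.70 and 4.59 in WT, 5.66 and 5.68 in HRE1ox and 5.20 and 5.16 in HRE2ox under hypoxia, from air arrays of 6.81 to 7.10 in the 3 genotypes. It was 1.03 ± 0.13 higher in HRE1ox than in WT (adjusted p = 0.00705). The second, 250662_at, read 8.09 and 7.87 and then 6.00 and 5.92 in WT, 8.37 and 8.20 and then 4.75 and 4.46 in HRE1ox, and 6.85 and 7.27 and then 5.38 and 5.34 in HRE2ox. It was 1.35 ± 0.17 log2 units lower in HRE1ox than in WT under hypoxia (a difference of -1.35, adjusted p = 0.00824). Both calls were lost without the 4 arrays that stand apart, at 1.09 and -1.46, and with single arrays left out the adjusted p ranged from 0.0486 to 0.0711 for 264146_at and from 0.0341 to 0.0784 for 250662_at. The median over the members was 0.01, and 28 (22.4%, against 7.93% of all tested) had an unadjusted p under 0.05, 17 lower and 11 higher. With the 4 arrays set off as a block 11 members were called, 5 lower and 6 higher (3.43% of tested probe sets were called). Between HRE2ox and WT under hypoxia no member was called in limma (0.0731% of tested probe sets were), the median was -0.09, and 19 (15.2%, against 9.05% of all tested) had an unadjusted p under 0.05, 10 lower and 9 higher.

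**Figure D5:**
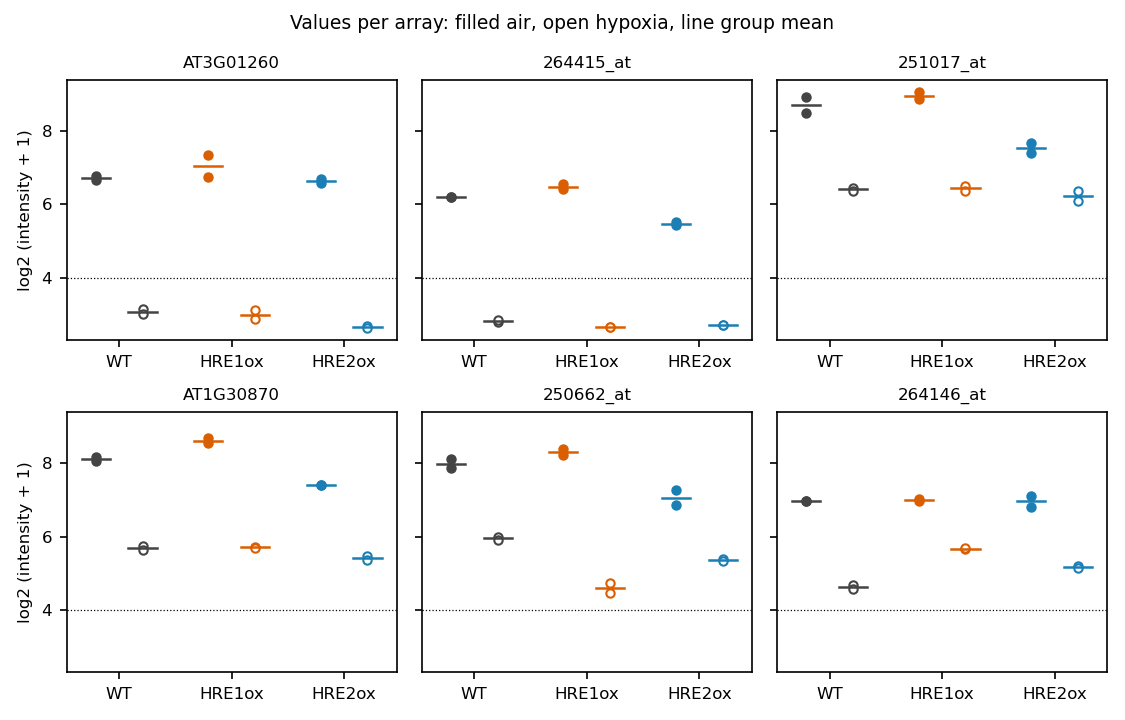
Log2 (intensity + 1) on each array (y axis) for the lowest member with a gene and the 5 called between genotypes, by genotype (x axis), with filled points for air, open points for hypoxia, lines for group means and a dotted line at log2 4. AT3G01260 drops below log2 4 in all 3 genotypes, AT1G30870, 251017_at and 264415_at start lower in HRE2ox air, and under hypoxia 250662_at is lowest and 264146_at highest in HRE1ox.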

How the data were processed

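The deposited values are linear intensity values of ATH1 probe sets that the authors made with GCRMA, a background correction and quantile normalization for such arrays, per the submitters' processing notes. Its version is not given in the sources used here. From the deposited intensities, log2 (intensity + 1) was computed here for all 12 arrays, grouped by title. Of 22810 probe sets, 64 controls were left out, and 13687 that reached log2 4 on at least 2 arrays were tested. A model over 6 groups of 2 was fitted with limma 3.58.1 in R 4.3.3 (lmFit, eBayes), with p-values (two-sided) adjusted by Benjamini and Hochberg over all tested probe sets within each of 9 comparisons, and a call needs an adjusted p under 0.05. The number of arrays limits the precision. Tables and figures were made with Python 3.11.15. The script was tested on simulated data.

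Genes come from a platform table, updated through RefSeq, which matched 50 of the 51 single-gene members. The members and all lists were chosen with earlier results of these data known, and the roles were written from general knowledge after the members were seen. Values are given by rule for the 10 members with the lowest mean difference, the 5 with the highest air level, called members, those next to the limit, the 3 lowest with no gene, and list and family members; the other genes were named to account for each role, after their values were seen. Alternatives were the replicate number as a block, centring, filters, the pseudocount and arrays left out; dropping the 4 arrays that stand apart was chosen after seeing the data. Promoter motifs and protein lengths were planned, but sequences were not used here.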

Additional observations from a re-analysis of the deposited data

How the results depend on the processing

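The number of members moved with the limit, from 125 to 217 at -0.8 and 83 at -1.2; it was 113 with centred arrays, 86 with a pseudocount of 16, 127 without the 4 arrays that stand apart and 118 to 133 with single arrays left out, where 82 of the 125 met the choice every time. The median difference with a pseudocount of 16 was -1.21 in WT, -1.51 in HRE1ox and -1.22 in HRE2ox, and with single arrays left out it ran from -1.63 to -1.48, -1.88 to -1.71 and -1.58 to -1.41. Probe sets called between hypoxia and air numbered 901 in WT, 1696 in HRE1ox and 953 in HRE2ox. With single arrays left out these were 558 to 620, 1093 to 1221 and 472 to 584, and without the 4 arrays 410 in WT and 904 in HRE1ox, where fewer arrays enter the fit. Peroxidase genes called lower in WT went from 13 to 8 without the 4 arrays.

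Same-numbered arrays deviated together among the WT and HRE1ox groups (correlations of 0.67 to 0.75) but not with HRE2ox (-0.58 to -0.24), so the number was kept out of the model. The main fit thus leaves the deviation shared by WT and HRE1ox arrays in its error. None of the 4 arrays that stand apart is from HRE2ox, so HRE2ox against WT, in air or under hypoxia, partly mixes the line with that difference between arrays. The replicate number as a block over all 12 arrays gave 0 called members for HRE1ox in air (0.0146% of tested probe sets were called). It gave 2 for HRE1ox under hypoxia (0.986%). For HRE2ox in air it gave 4 called lower and 1 called higher (1.06%), and a limma adjusted p of 0.053 for 250662_at. In the 8 WT and HRE1ox arrays alone, such a block gave 2202 and 3697 probe sets called between hypoxia and air in WT and HRE1ox. In that fit, called members for HRE1ox numbered 6 in air (1.35% of tested probe sets), 11 under hypoxia (3.43%) and 3 in the interaction (0.577%). Called members went from 4 to 0 for HRE2ox in air and from 2 to 0 for HRE1ox under hypoxia without the 4 arrays, and to 0 to 1 in both with single arrays left out. Fewer arrays enter these fits, and without the 4 arrays the differences behind the lost calls were -0.95 to -0.65 for HRE2ox in air, and 1.09 and -1.46 for HRE1ox under hypoxia. The median interaction with HRE1ox stayed between -0.28 and -0.15 with single arrays left out, and that with HRE2ox ran from -0.05 to 0.11. The differences of the 5 probe sets called between genotypes kept their sign in each setting run. Where an array was left out, the remaining one of its group was taken to vary like the other groups. With 2 arrays a group, low hypoxia levels may hide the size of the deepest drops.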
